A study of Cucumis sativus with 2 samples.

Results

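B-box zinc finger proteins are plant transcription regulators that carry a single B-box or a pair of them near the amino terminus. The copies described here are the cucumber genes whose Arabidopsis homologue, as the deposited read table lists it, is BBX18, BBX19, BBX20, BBX21, BBX22, BBX24, BBX25, BBX32, COL9 or COL4. Of 20700 genes in the read table, 11 met this rule, and they belonged to 8 of the 10 loci. BBX25 (AT2G31380) and BBX32 (AT3G21150) matched no gene and are not analysed here. The family was selected on the read ratios of these same libraries, so the ratios below are a description with no test. BBX18, BBX19, BBX20, BBX22 and BBX24 had 1 copy each, BBX21 had 3, COL9 had 2 and COL4 had 1. The copies lay on chromosomes 2, 4, 6 and 7, with 3, 2, 3 and 3 copies. Sequences and start and end positions of the copies are not used here.

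Both libraries were made from poly(A) RNA of cucumber (Cucumis sativus) fruit that bends as it grows, taken at day 2 after anthesis. The ventral side of the fruit gave 1 library of 21863715 counted reads and the dorsal side gave 1 library of 11893394. The design sets the ventral side against the dorsal side, and no other comparison is possible. The labels give no cultivar, no number of fruits per library and no time of day of harvest. With 1 library per side there is no replicate check of any difference, and every interval below covers counting error only. In tissue samples such as these, fewer cells of a type and less RNA per cell cannot be told apart. Reads were scaled with the trimmed mean of M values (TMM), and ratios are ventral over dorsal. Brackets hold the 95% counting interval of a log2 ratio. Genes with 20 or more reads over both libraries, 17462 in number, count as measured. A measured gene is called ventral-high or dorsal-high where the ratio reached 2-fold in that direction and the interval excluded a ratio of 1.

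In Arabidopsis the B-box proteins pass light signals to growth and flowering. Those with a pair of B-boxes and no CCT domain, BBX18 to BBX25 in this set, act around the transcription factor HY5. Many of them are degraded through the COP1 ubiquitin ligase. Some promote the light-grown form of the seedling and others oppose it. The CONSTANS-like members COL4 and COL9 carry a CCT domain as well, a DNA-binding part shared with the flowering regulator CO, and both delay flowering in Arabidopsis. Roles given below are those of the Arabidopsis proteins.

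The B-box copies went in different directions. Of the 10 measured copies, 2 were called ventral-high, 3 dorsal-high and 5 neither. Among all 17462 measured genes, 13.2% were called ventral-high and 11.5% dorsal-high. The median log2 ratio was -0.68 over the copies and 0.01 over all measured genes. A single copy, the BBX18 homologue, lay far from the rest. Without it the median over the other 9 copies was -0.51, and their ratios ran from -1.04 to 1.81. Of the 7 measured copies without a CCT domain, 6 had a log2 ratio below 0, and all 3 CONSTANS-like copies lay above 0. The intervals of COL4 and of the BBX21 copy Csa2G250430 included a ratio of 1. The other B-box genes described below did not all follow this split. BBX27, called ventral-high at 1.09, and BBX29, both without a CCT domain, lay above 0. BBX31, also without one, lay below 0. The CONSTANS-like copies below 0 among the other B-box genes had intervals that included a ratio of 1.

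**Figure D1:**
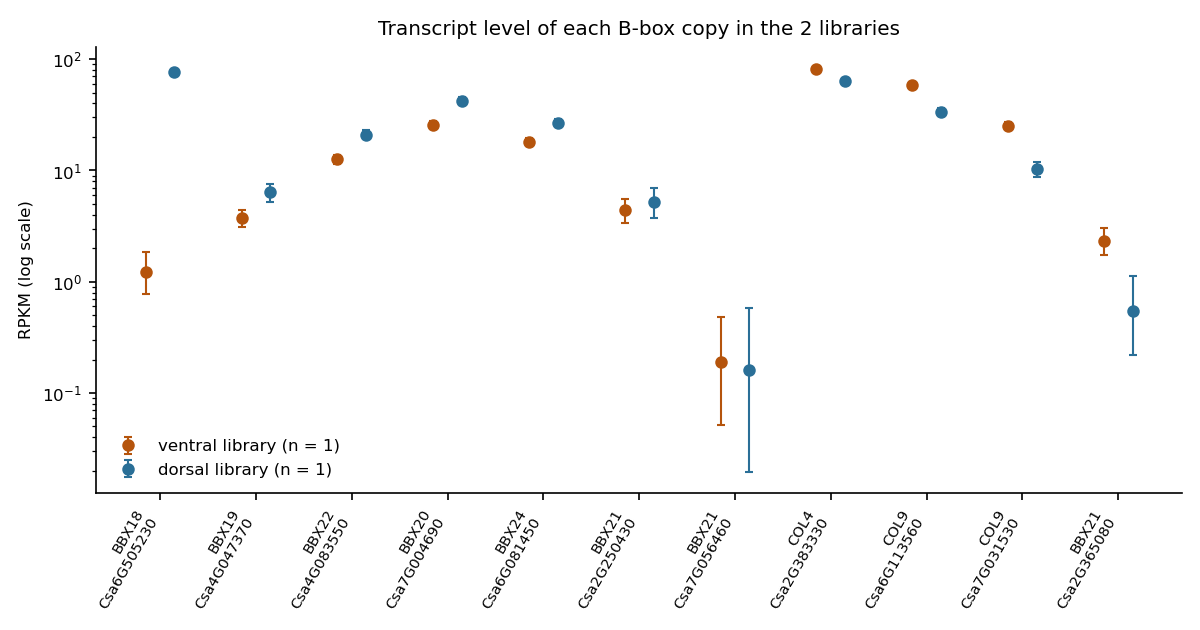
RPKM (log axis) of each of the 11 B-box copies in the ventral (orange, left of each pair) and dorsal (blue, right) library, 1 library per side; bars are 95% Poisson counting intervals. The BBX18 copy is at 1.23 RPKM in the ventral and 76.5 RPKM in the dorsal library, while the other copies differ far less between the libraries.

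The BBX18 homologue (Csa6G505230, chromosome 6, locus AT2G21320) had by far the most unequal level of the set. BBX18 promotes seedling stem elongation in the light and lowers heat tolerance. It had 23 ventral reads and 801 dorsal reads, and its level was 1.23 RPKM (reads scaled for transcript length and library depth) in the ventral and 76.5 RPKM in the dorsal library. The log2 ratio was -6.23 [-6.90 to -5.64], which is 75.2-fold higher in the dorsal library. Genes with 0 ventral reads could lie lower. As counted, and with 0 reads set to a floor of 3, this was the lowest ratio of all 17462 measured genes. The next 2 were the F-box gene VBF (Csa1G568500), at a log2 ratio of -5.94 that is a bound because it had 0 ventral and 85 dorsal reads, and the small helix-loop-helix gene PRE5 (Csa1G032990), at -5.89 with 4 ventral and 110 dorsal reads. Among measured genes the BBX18 copy lay at percentile 4.95 of RPKM in the ventral and at percentile 89.3 in the dorsal library.

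**Figure D2:**
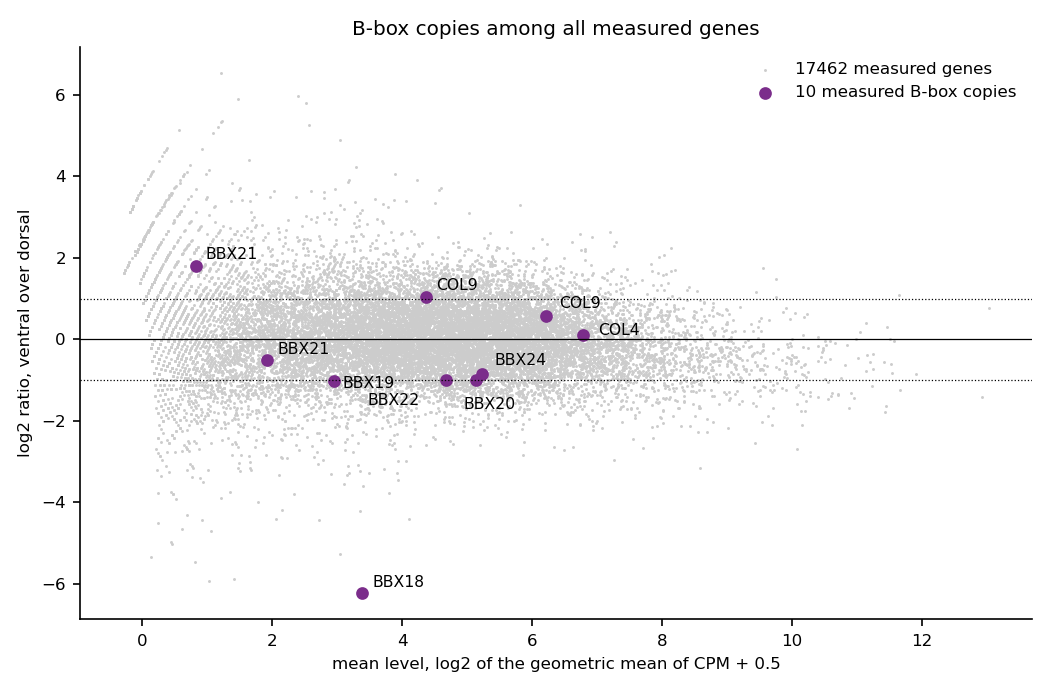
Each point is a measured gene; the x axis is the log2 of the geometric mean of CPM + 0.5 over both libraries, the y axis the log2 ratio of ventral over dorsal, and dotted lines mark 2-fold. The BBX18 copy, at -6.23, is the lowest of 17462 points where 0 reads are set to a floor of 3. The other 9 B-box copies (purple) lie between -1.04 and 1.81.

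The genes most like the BBX18 copy were found by the distance between pairs of log2(CPM + 0.5) values over the 2 libraries. The nearest 5 were all dorsal-high, as the measure requires. Csa7G037540, which the table pairs with no Arabidopsis locus, was nearest at a distance of 0.787, with 26 ventral and 465 dorsal reads. Csa5G168910 and Csa6G101980, also without a locus, had 50 ventral and 430 dorsal reads and 28 ventral and 280 dorsal reads. Of the pair with a locus, the nearer was the gibberellin 20-oxidase GA5 (Csa5G172270), an enzyme of gibberellin synthesis, with 82 ventral and 809 dorsal reads, 21.3-fold higher in the dorsal library. Csa5G184310, paired with AT3G55580 and no symbol, was 13.6-fold higher there, with 83 ventral and 524 dorsal reads. A pattern over 2 libraries holds a level and a ratio only, and no likeness beyond these.

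The BBX19, BBX20, BBX22 and BBX24 homologues had close to the same ratio as each other, all lower in the ventral library and all near the 2-fold threshold. The BBX19 homologue (Csa4G047370, locus AT4G38960), whose Arabidopsis counterpart binds CO and delays flowering, had 119 ventral and 113 dorsal reads and a level of 3.71 RPKM in the ventral and 6.34 RPKM in the dorsal library. Its log2 ratio was -1.04 [-1.42 to -0.65], or 2.05-fold higher in the dorsal library. The BBX22 homologue (Csa4G083550, locus AT1G78600, STH3 in the table), a partner of HY5 that promotes light responses, had 419 ventral and 390 dorsal reads and a level of 12.6 RPKM in the ventral and 21.0 RPKM in the dorsal library. Its log2 ratio was -1.01 [-1.21 to -0.80], or 2.01-fold. Both copies were called dorsal-high, by a margin smaller than their counting error.

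The BBX20 homologue (Csa7G004690, locus AT4G39070, BZS1 in the table), a factor that promotes light responses and is repressed by brassinosteroids, had 580 ventral and 533 dorsal reads, with 25.5 RPKM in the ventral and 42.3 RPKM in the dorsal library. Its log2 ratio of -0.99 [-1.16 to -0.82] was just short of 2-fold. The BBX24 homologue (Csa6G081450, locus AT1G06040, STO in the table), which opposes HY5, had 654 ventral and 544 dorsal reads, with 17.98 RPKM in the ventral and 26.9 RPKM in the dorsal library and a log2 ratio of -0.85 [-1.01 to -0.68]. The 4 intervals overlapped one another and each excluded a ratio of 1, so the called and the uncalled copies of these 4 could not be told apart by their ratios.

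The 3 BBX21 copies did not share a direction. BBX21 switches on the HY5 gene in Arabidopsis, and the table names all 3 copies (locus AT1G75540) STH2. Csa2G365080 had 53 ventral and 7 dorsal reads, 2.32 RPKM in the ventral and 0.55 RPKM in the dorsal library, and a log2 ratio of 1.81 [0.67 to 3.19], or 3.51-fold higher in the ventral library. Csa2G250430 had 65 ventral and 43 dorsal reads, 4.39 RPKM in the ventral and 5.18 RPKM in the dorsal library, and a log2 ratio of -0.51 [-1.09 to 0.08] that was not called. The intervals of these 2 copies did not overlap. Csa7G056460 had 4 ventral and 2 dorsal reads and was not measured. Csa2G250430 carried 63.6% of the summed BBX21 RPKM in the ventral library and 87.9% in the dorsal library. All of these levels were low, and 7 dorsal reads behind the ventral-high copy make its fold size imprecise.

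The CONSTANS-like copies ranked 1, 2 and 4 by RPKM in the ventral library, and their log2 ratios lay between 0.10 and 1.05. The COL4 homologue (Csa2G383330, locus AT5G24930) had 2694 ventral and 1167 dorsal reads, with 81.5 RPKM in the ventral and 63.7 RPKM in the dorsal library. Its log2 ratio of 0.10 [-0.003 to 0.197] did not exclude a ratio of 1. The COL9 homologues (locus AT3G07650) differed from each other in size of ratio but not in direction. Csa7G031530 had 683 ventral and 153 dorsal reads, with 25.3 RPKM in the ventral and 10.3 RPKM in the dorsal library, and was called ventral-high at a log2 ratio of 1.05 [0.79 to 1.31], or 2.07-fold higher in the ventral library. Csa6G113560 had 2128 ventral and 668 dorsal reads, with 59.2 RPKM in the ventral and 33.5 RPKM in the dorsal library, and its log2 ratio of 0.56 [0.44 to 0.69] was short of 2-fold. The intervals of the COL9 copies did not overlap. How the authors' counting treated reads that match several copies is not given in the sources used here, so the split between copies of 1 locus is uncertain.

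**Figure D3:**
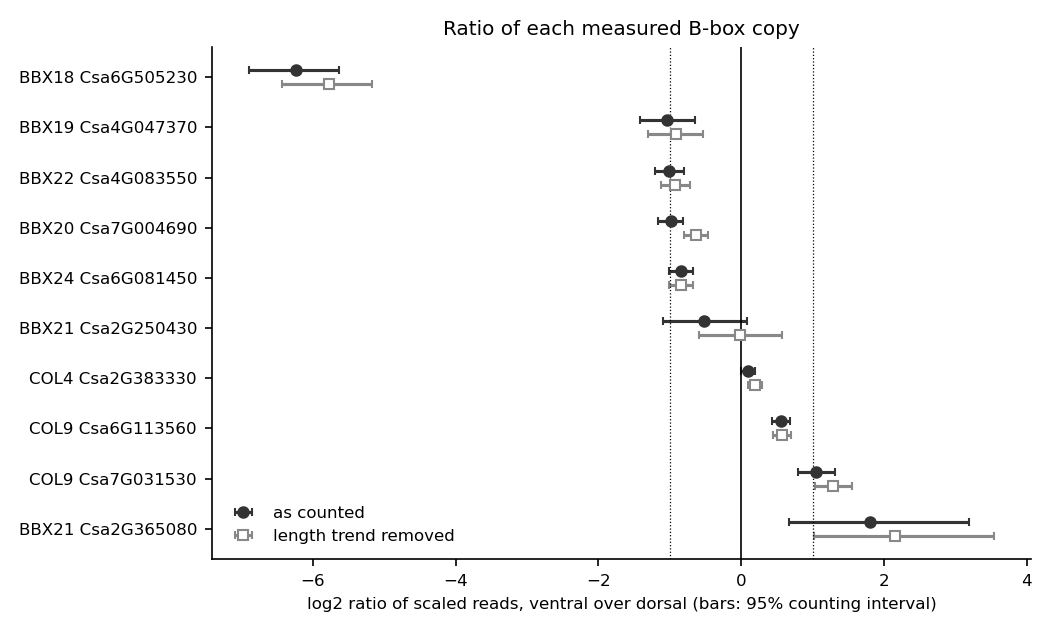
Log2 ratio of ventral over dorsal for the 10 measured B-box copies with 95% counting intervals, as counted (filled circles) and with the trend with transcript length removed (open squares); dotted lines mark 2-fold. The copies run from BBX18 at -6.23 to a BBX21 copy at 1.81, and the BBX19, BBX20, BBX22 and BBX24 copies sit together between -1.04 and -0.85.

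The order of the levels differed between the libraries, mainly because of the BBX18 copy. In the ventral library COL4 ranked 1 of 11 by RPKM and BBX18 ranked 10. In the dorsal library BBX18 ranked 1, at 76.5 RPKM, above COL4 at 63.7 RPKM. In the ventral library the neighbours in the order whose Poisson intervals overlapped were BBX20 and the COL9 copy Csa7G031530, BBX21 Csa2G250430 and BBX19, and BBX21 Csa2G365080 and BBX18. In the dorsal library they were BBX19 and BBX21 Csa2G250430, and the other 2 BBX21 copies. Summed over all 11 copies the level was 234 RPKM in the ventral and 286 RPKM in the dorsal library, and the BBX18 copy made up 0.526% of the ventral and 26.7% of the dorsal sum. Without it the sums were 233 RPKM in the ventral and 210 RPKM in the dorsal library. RPKM values are not TMM-scaled, and by RPKM every measured copy had a log2 ratio further to the ventral side. COL4 was at 0.36 by RPKM and at 0.10 by TMM-scaled reads. The RPKM sums here and below carry this shift, so the direction of a small difference between them is not settled. The CONSTANS-like copies summed to 166 RPKM in the ventral and 107 RPKM in the dorsal library. The copies without a CCT domain summed to 67.9 RPKM in the ventral and 179 RPKM in the dorsal library, or 66.7 and 102 RPKM without the BBX18 copy.

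Library scaling moved the copies near the threshold. With total reads instead of TMM as the scale, which raised every log2 ratio by 0.23, 2 copies were called ventral-high and 1, the BBX18 copy, dorsal-high. Over all measured genes that scaling called 19.1% ventral-high and 7.35% dorsal-high, so the ventral share of called genes was 72.2% in place of 53.5%. COL4 was then at 0.33. Upper-quartile scaling took the BBX20 copy past 2-fold, to -1.01, and TMM over all genes without the read minimum took the BBX22 copy short of it, to -0.99. The same number of ventral-high copies, 2, was found with DESeq2 size factors, upper-quartile scaling and TMM over all genes, beside 13.0%, 12.7% and 13.6% of measured genes. Dorsal-high copies numbered 3, 4 and 2 under these scalings, beside 11.7%, 11.9% and 11.1% of genes. Ratios of the authors' RPKM values gave 2 ventral-high copies and left the BBX18 copy alone as dorsal-high. They called 19.5% of genes ventral-high and 6.73% dorsal-high at a pseudocount of 0.1, and 14.4% and 5.29% at a pseudocount of 1. At a threshold of 1.5-fold, 2 copies were ventral-high and 5 dorsal-high, beside 24.3% and 22.9% of genes. With a minimum of 100 reads, 1 copy was ventral-high and 3 were dorsal-high, beside 12.2% and 10.4% of genes. No measured copy changed the sign of its ratio under any of the alternatives run.

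**Figure D4:**
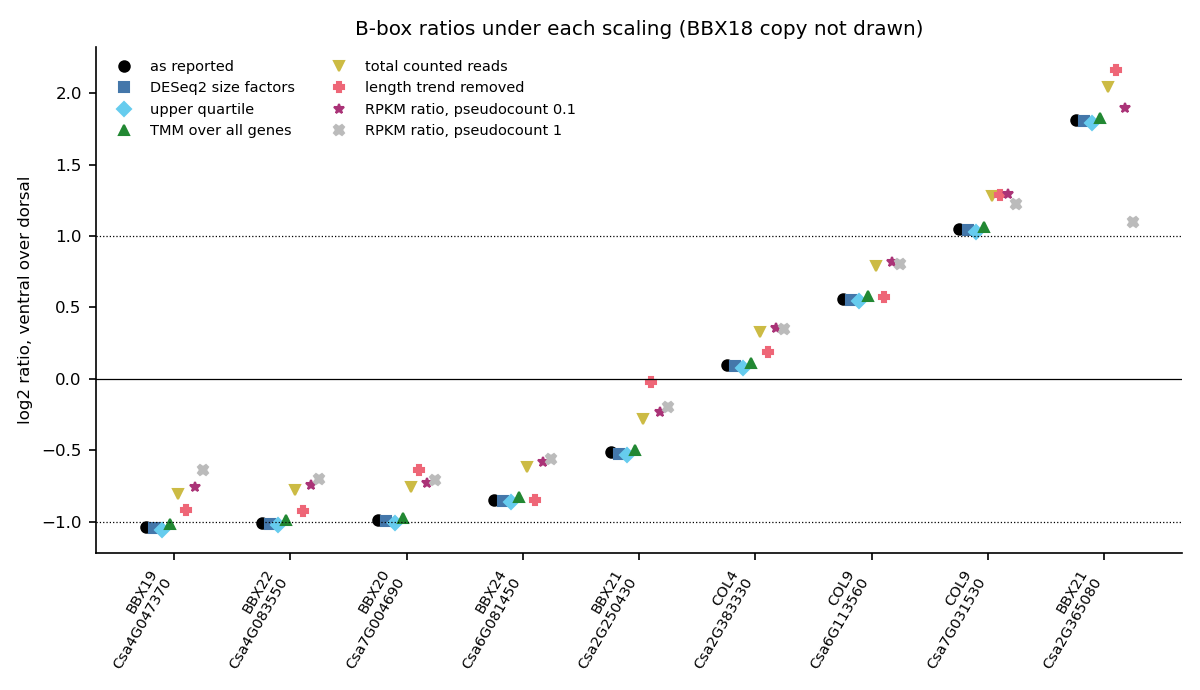
Log2 ratio of ventral over dorsal of 9 measured B-box copies (the BBX18 copy is left out for scale) under TMM as reported and 7 other scalings or ratio measures; dotted lines mark 2-fold. The BBX19, BBX20 and BBX22 copies cross the lower line between scalings, the 2 ventral-high copies stay above the upper line, and none crosses 0.

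Transcript length also moved with the ratio. Over the 17462 measured genes, ratio and exonic length (as implied by reads and RPKM) had a Spearman rho of 0.39, a value across genes that are no independent replicates. The measured B-box copies had implied exonic lengths from 678 to 1650 bp, with a median of 1340 bp, against a median of 1464 bp over all measured genes. With the trend removed, the BBX18 copy, at 856 bp, had a log2 ratio of -5.77. The BBX19 and BBX22 copies were at -0.92 and -0.92 and were no longer called. The BBX20 copy was at -0.63, the BBX24 copy at -0.85 and the BBX21 copy Csa2G250430 at -0.02. The COL9 copy Csa7G031530 was at 1.29 and the BBX21 copy Csa2G365080 at 2.16, and both were still called. The COL9 copy Csa6G113560 was at 0.57. COL4 was at 0.19 [0.09 to 0.29], an interval that then excluded a ratio of 1. In this form 2 of 10 copies were ventral-high and 1 was dorsal-high, beside 11.1% ventral-high and 8.16% dorsal-high among all measured genes.

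Genes that act with the B-box proteins were taken as lists by Arabidopsis locus. At the light-sensing end, of 7 measured photoreceptor copies (phytochromes, a cryptochrome and UVR8) 0 were called, with a median log2 ratio of 0.70 and a range from 0.02 to 0.95. With the length trend removed 1 was ventral-high and the median was 0.04; these are long transcripts, with a median exonic length of 3433 bp. Of 7 copies of the COP1-SPA ligase, which marks B-box proteins and HY5 for degradation, and of proteins that work with it, 2 were ventral-high. They were SPA2 (Csa5G150990), with 791 ventral and 146 dorsal reads and a log2 ratio of 1.33, and DET1 (Csa3G126990), with 336 ventral and 69 dorsal reads and a log2 ratio of 1.17. SPA2 was at 0.54 with the length trend removed and was not called. The COP1 copies Csa1G699620 and Csa6G161200 were at 0.79 and 0.39.

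HY5, the leucine zipper factor that B-box proteins bind, was called dorsal-high in both of its cucumber copies. Csa2G381650 had 1112 ventral and 1407 dorsal reads, with 27.6 RPKM in the ventral and 62.9 RPKM in the dorsal library and a log2 ratio of -1.45 [-1.56 to -1.34]. Csa3G878800 had 355 ventral and 440 dorsal reads, with 21.1 RPKM in the ventral and 47.2 RPKM in the dorsal library and a log2 ratio of -1.42 [-1.63 to -1.22]. With the length trend removed Csa3G878800, at -0.93, was short of 2-fold. In the list of 9 measured HY5 and PIF copies, 1 was ventral-high and 3 were dorsal-high. UNE10 (Csa6G108570), a phytochrome-interacting helix-loop-helix factor, was the furthest, with 26 ventral and 168 dorsal reads and a log2 ratio of -3.80. PIF1 (Csa7G333400), which represses light responses in the dark, had 291 ventral and 57 dorsal reads and a log2 ratio of 1.24, and was at 0.78 with the length trend removed.

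Among 7 measured light-induced target copies, 1 was called, dorsal-high, and the list had a median log2 ratio of -0.47. It was ELIP1 (Csa3G145780), an early light-induced chloroplast protein, with 104 ventral and 525 dorsal reads and a log2 ratio of -3.45 [-3.76 to -3.14]. The flavonoid enzymes were nearer to 0, with chalcone synthase (Csa3G600020) at -0.60 and the flavanone hydroxylase copies Csa3G002800 and Csa6G108510 at -0.71 and -0.44. Of 3 measured copies of FT and SOC1, which CO activates to start flowering, 2 were dorsal-high. FT (Csa1G651710) had 383 ventral and 398 dorsal reads and a log2 ratio of -1.17, and SOC1 (Csa6G076720) had 76 ventral and 91 dorsal reads and a ratio of -1.37. With the length trend removed they were at -0.76 and -0.89, and neither was called.

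Of 11 measured copies of other B-box genes, 2 were ventral-high and 1 was dorsal-high, with a median log2 ratio of 0.19. The BBX14 copy Csa5G609670, a CCT-domain member, had a ratio of 2.52 [2.23 to 2.82] from 1289 ventral and 104 dorsal reads. The BBX27 copy (Csa5G610520), which has no CCT domain, was at 1.09 [0.71 to 1.47] from 330 ventral and 72 dorsal reads. With the length trend removed the BBX27 copy was at 1.20 and still called. The BBX31 copy (Csa2G423560), a small single B-box protein, was at -1.38 [-2.14 to -0.63] from 29 ventral and 35 dorsal reads, and at -0.88 it was short of 2-fold with the length trend removed. Among those not called, BBX29 (Csa3G850640), which has no CCT domain, was at 0.68 [0.43 to 0.94]. The CONSTANS-like COL2 (Csa4G124910), with 12 ventral and 10 dorsal reads, was at -0.85 [-2.18 to 0.52]. COL5 (Csa2G057080) was at -0.09 [-0.26 to 0.08], so both intervals included a ratio of 1. COL15 (Csa4G011750) was at 0.86 [0.73 to 0.98], and no CONSTANS-like copy of this list had an interval wholly below a ratio of 1. The summed level of all 15 copies was 332 RPKM in the ventral and 205 RPKM in the dorsal library.

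**Figure D5:**
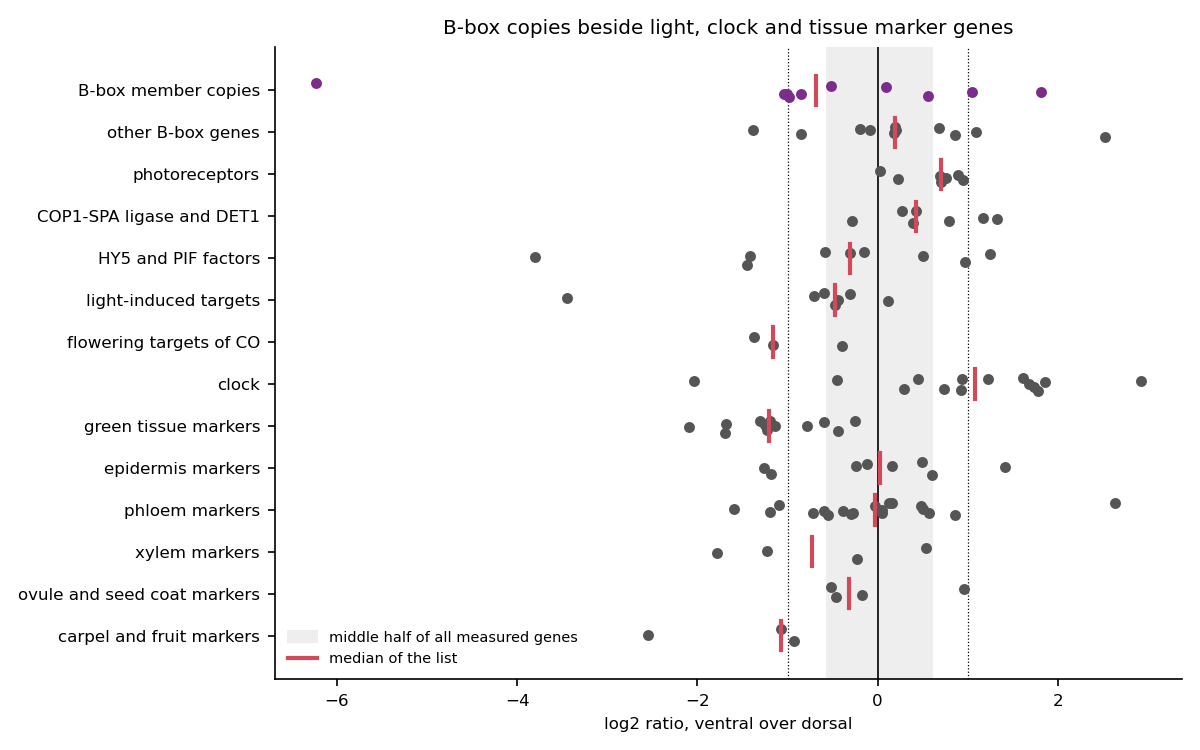
Log2 ratio of ventral over dorsal for each measured gene of the B-box set (purple) and of the light, clock and marker lists (grey), with list medians in red and the interquartile range of all measured genes shaded; dotted lines mark 2-fold. Clock genes have a median of 1.08 and green tissue markers a median of -1.21, while the B-box copies spread to both sides of 0.

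Clock genes and markers of green tissue also differed between the libraries. In Arabidopsis many B-box transcripts cycle over the day. With 1 library per side and no time of day of harvest given, these libraries cannot show cycling. Of 14 measured clock copies, 7 were ventral-high and 1 was dorsal-high, with a median log2 ratio of 1.08. The median was 0.73 once the length trend was taken out, with 5 ventral-high and 1 dorsal-high. The highest by interval bound were GI, ELF4, ELF3 and FKF1. GI (Csa6G055360) was at 1.73 from 7608 ventral and 1059 dorsal reads, ELF4 (Csa5G202370) at 1.78, ELF3 (Csa2G352370) at 1.68 and FKF1 (Csa5G021300) at 1.62, and this GI copy was at 0.75 with the length trend removed. The other 3 ventral-high clock genes were further GI copies on chromosome 7. Csa7G293230, Csa7G293730 and Csa7G293740 had implied exonic lengths of 306, 846 and 2807 bp, against 4911 bp for Csa6G055360. Csa7G293230 had 49 ventral and 3 dorsal reads, and Csa7G293730 had 39 and 5. Whether these copies belong to 1 gene was not tested, so the clock counts may hold a gene more than once. LHY (Csa6G095910), a morning gene in Arabidopsis, was at -2.03 [-2.32 to -1.75] from 154 ventral and 292 dorsal reads. Among clock genes that were not called, PRR7 (Csa4G293050) was at 0.74, TOC1 (Csa1G038380) at 0.29 and the LUX copies Csa1G524660 and Csa6G190220 at 0.92 and -0.45. The part of the clock difference in the B-box ratios was not tested.

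Of 12 green tissue marker copies, all of which encode light-harvesting proteins, 0 were ventral-high and 8 dorsal-high. Their median log2 ratio was -1.21, and their summed level was 8714 RPKM in the ventral and 17116 RPKM in the dorsal library. None of them was at 0 reads. LHCB3 (Csa3G099680) was at -2.09 and LHCA2 (Csa5G589390) at -1.69, and the LHCB1 copies Csa1G445860 and Csa6G522690 were at -1.69 and -1.31. Once the length trend was taken out the median was -0.98 and 6 copies were dorsal-high. The part of green tissue in the B-box ratios was not tested. The BBX18 ratio of -6.23 was the lowest of all measured genes, so it had to lie below every measured gene in these lists. That comparison does not bear on the part of green tissue.

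Of 8 measured epidermis copies 1 was ventral-high and 2 were dorsal-high, with a median of 0.02. Summed over all 13 epidermis copies, measured or not, the level was 90.5 RPKM in the ventral and 73.0 RPKM in the dorsal library. The called epidermis copies were the homeodomain gene ATML1 (Csa1G064670) at 1.42, its relative PDF2 (Csa6G514870) at -1.26 and the wax gene CER1 (Csa3G127770) at -1.18. Further measured CER1 copies, Csa6G079750 at -0.24 and Csa3G127760 at 0.49, were not called. Of 19 phloem copies 1 was ventral-high and 3 were dorsal-high, with a median of -0.03 and summed levels of 7233 RPKM in the ventral and 7964 RPKM in the dorsal library. The phloem lectin PP2-A1 was called in both directions, with copy Csa1G703060 at 2.64 and copies Csa4G500830 and Csa4G501830 at -1.60 and -1.10. Of the sieve element gene SEOR1 only copy Csa2G193380, at -1.19, was called. The other SEOR1 copies lay on both sides of 0, from -0.59 (Csa2G196890) to 0.86 (Csa2G349660). Of 4 measured xylem copies 0 were ventral-high and 2 dorsal-high, with a median of -0.72. Over all 6 xylem copies the sums were 16.6 RPKM in the ventral and 34.3 RPKM in the dorsal library. Those called were the xylem peptidase XCP1 (Csa7G027790) at -1.78 and the secondary wall cellulose synthase IRX3 (Csa2G070320) at -1.22. Not called were IRX1 (Csa1G470270) at -0.22 [-0.72 to 0.29] and IRX5 (Csa6G088080), in the other direction, at 0.53 [0.18 to 0.90]. Of 4 measured ovule and seed coat copies 0 were called, with a median of -0.32. Over all 6 copies of that list the sums were 47.3 RPKM in the ventral and 50.9 RPKM in the dorsal library. The carpel identity gene AG (Csa1G467100) and the fruit gene FUL (Csa1G039910) were present on both sides. AG was at 77.5 RPKM in the ventral and 123 RPKM in the dorsal library, and FUL at 80.6 RPKM in the ventral and 141 RPKM in the dorsal library. Of 3 carpel and fruit copies, 2 were dorsal-high, FUL at -1.07 and CRC (Csa5G606780) at -2.54 with 10 ventral and 27 dorsal reads, and AG was at -0.92. FUL was at -0.76 and not called with the length trend removed. No list used here marks the ventral or the dorsal side of a fruit, so the side of each library rests on its label. The part of these tissues in the B-box ratios was not tested.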

How the data were processed

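The members and lists were chosen with earlier results of these data known. Per the labels' protocols, strand-specific poly(A) libraries were sequenced. The submitters' processing notes name TopHat2 and edgeR with no version. Genome build, counter and strandedness of counting: not given in the sources used here. The deposited tables hold raw read counts per gene and RPKM values as the authors computed them, per the file headers. Homologues are those of the deposited table, matched by Arabidopsis locus, and Arabidopsis names follow from the locus. TMM scaling (edgeR 4.0.16, R 4.3.3) over genes with at least 20 reads gave a depth ratio of 2.16, ventral over dorsal. Ratios carry exact conditional binomial (Clopper-Pearson) 95% intervals (SciPy 1.17.1), RPKM values exact Poisson intervals, and 0 reads count as a floor of 3 (0.127 TMM-scaled CPM ventral, 0.273 dorsal). Intervals were tested on data simulated with Poisson counting error alone, so that test says nothing about the spread between fruits. The implied exonic length is reads over RPKM, scaled so that percentile 99.5 of its ratio to the listed gene length equals 1 among genes above an RPKM of 10 in both libraries. The length trend is a lowess fit (statsmodels 0.14.6, fraction 0.3), removed about the median ratio. Every copy of the 10 loci is named, and from each list the genes called ventral-high or dorsal-high, at most 4 per direction ranked by interval bound; other list genes named were chosen after their values were seen.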

Additional observations from a re-analysis of the deposited data

How the results depend on the processing

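No paired analysis was possible because neither side has a replicate, and no replicate could be left out. The number of dorsal-high B-box copies, 3 as reported, was 1 with scaling by total reads, with the length trend removed and with RPKM ratios at pseudocounts of 0.1 and 1, and 5 at a fold threshold of 1.5. The number of ventral-high copies, 2 as reported, was 1 with a minimum of 100 reads, which removes the BBX21 copy with 60 reads. Across all measured genes, 2304 were ventral-high and 2005 dorsal-high. At a fold threshold of 1.5 these were 4243 and 3997. The dorsal number was 1283 with total reads, and 1175 and 924 with RPKM ratios at pseudocounts of 0.1 and 1. Over the 13 context lists 14 genes were ventral-high and 25 dorsal-high. The ventral number was 23 with total reads, 23 with RPKM ratios at a pseudocount of 0.1 and 29 at a fold threshold of 1.5. The dorsal number was 14 and 12 with RPKM ratios at pseudocounts of 0.1 and 1. The median log2 ratio of the B-box copies, -0.68 as reported, ran from -0.84 to -0.33 over the alternatives, and none of the 10 measured copies changed sign; the unmeasured BBX21 copy Csa7G056460, at -0.11, was at 0.12 with total reads and 0.29 with the length trend removed. TMM over all genes was chosen after seeing the data; it gave 2 dorsal-high copies, and DESeq2 1.42.0 size factors gave 3. A pseudocount shrinks the ratios of low genes, and the RPKM ratio of the BBX18 copy was -5.12 with a pseudocount of 1 and -5.96 with none. Depth limits the BBX21 copies, whose dorsal reads number 43, 7 and 2, and the size of the BBX18 ratio, which rests on 23 ventral reads.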
